A study of Bos taurus and Bos grunniens x Bos taurus and Bos grunniens with 18 samples.

Results

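The genes described here act in meiotic recombination and crossover formation. They were chosen by symbol, as DMC1, MEIOB, SPATA22, HSF2BP, TEX11, TEX15, MSH4, MSH5, MLH3 and RNF212, and 9 of the 10 were found among the 19994 genes of the testis mRNA table. RNF212 had no row under that symbol and is not analysed here. All 9 were among the 14091 genes kept for testing, which had 3 or more libraries at an FPKM of 1 or above. FPKM counts the fragments of a transcript in relation to its length and to all fragments mapped in that library, so levels can be compared between genes.

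The series compared whole testes of cattle (Bos taurus), yak (Bos grunniens) and their hybrid, the cattle-yak (Bos grunniens x Bos taurus, titled Dzo), with 3 animals of each. All were 4 years old, came from one cooperative, and gave testes at castration, and no further agent is named for any group. Which parent species was the mother of the hybrids is not stated. Male cattle-yaks are known to be sterile, and each replicate is described as a separate animal.

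In meiosis, chromosomes are cut on purpose, and the cut ends are trimmed to single strands that search for the matching sequence on the partner chromosome. Recombinases coat these strands and pair them with the partner, and some of the joined intermediates are then stabilised and cut as crossovers, which hold the partners together until the first division. In the testis this work is done in spermatocytes during the long first prophase, and mice that lack one of these proteins commonly lose their spermatocytes at that stage. The description below goes from strand exchange (DMC1, MEIOB, SPATA22, HSF2BP, TEX15) to the stabilisation and resolution of crossovers (TEX11, MSH4, MSH5, MLH3).

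Markers of the testis were present in all 9 libraries, and the cattle-yak libraries stood apart from both parents in nearly every cell type list. The summed FPKM of 12 spermatid genes was 15679 to 27135 in cattle, 20451.9 to 22603 in yak and 20.0 to 97.2 in cattle-yak, where ACRV1 and TXNDC8 were listed at 0 in replicate 3. The sum of 8 late spermatocyte genes was 1733 to 1939 in cattle, 1725 to 2096 in yak and 281 to 502 in cattle-yak. Within this list CCNB3 was higher in cattle-yak, at a mean of 21.1 FPKM against 5.46 in cattle and 3.07 in yak. AURKC was higher too (18.8 against 8.01 and 10.7), and the other genes of the list were lower. For 14 genes of the chromosome axis and synaptonemal complex the sum was 773 to 831, 787 to 891 and 489 to 793 in the same order, and replicate 3 of the cattle-yak was lowest. The genes of this list split, with SYCP3 at a mean of 90.9 FPKM in cattle-yak against 28.4 in cattle and 23.2 in yak. SYCE1 was at 23.0 in cattle-yak against 106 in both parents, and other means of the list lay above, below or between the parents. The sum of 9 Sertoli cell genes was 388 to 502 in cattle, 384 to 534 in yak and 1705 to 2002 in cattle-yak. For 8 Leydig cell genes it was 218 to 365, 256 to 588 and 1588 to 2198, and for 8 spermatogonial genes it was 91.7 to 113, 58.3 to 87.9 and 272 to 350. All of these sums but that of the axis and synaptonemal complex list lay apart between cattle-yak and both parents. They come from the same libraries as the differences given below, and the part of these lists in those differences was not tested. In whole tissue, fewer cells of a type and less RNA per cell cannot be told apart.

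Against that shift the recombination genes split. TEX11 was 3.60-fold higher in cattle-yak than in cattle, HSF2BP was 2.33-fold lower and TEX15 1.61-fold lower, and all of these differences were also seen against yak. DMC1 and SPATA22 were not called in either comparison, but this too depended on the library. With cattle-yak replicate 2 left out DMC1 was called lower, and with replicate 3 left out SPATA22 higher, in both comparisons. Median-ratio scaling also called DMC1 lower than in yak. MEIOB, MSH4, MSH5 and MLH3 differed by less than TEX11, HSF2BP and TEX15, with calls that depended on the parent, the library or the scaling. A call is an adjusted p under 0.05 from limma on log2(FPKM + 1), adjusted by Benjamini-Hochberg over all 14091 genes, and fold changes are ratios of mean FPKM. Both comparisons use the same 3 cattle-yak libraries, so their values stand side by side and do not support each other.

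Of the 9 genes, 3 were called higher and 4 lower in cattle-yak than in cattle. Calls were the rule in this comparison: 84.4% of all genes tested were called, 54.4% higher and 30.0% lower. Against yak 1 of the 9 was called higher and 3 lower, where 86.0% of all genes were called, 55.3% higher and 30.7% lower. The median log2 difference of the 9 genes was 0.0068 against cattle and -0.0074 against yak, and over all genes tested it was 0.50 and 0.54. Between yak and cattle none of the 9 was called by limma, 1 had an unadjusted p under 0.05, and 19.1% of all genes were called, 8.36% higher in yak and 10.7% lower.

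The median of all genes above 0 means that the direction of small differences depends on how libraries are scaled. With median-ratio scaling the medians of all genes became 0.020 against cattle and 0.0026 against yak. The calls over all genes against cattle then went from 7670 higher and 4224 lower to 5554 higher and 5710 lower, and those against yak from 7794 and 4322 to 5698 and 5912. For the 9 genes this scaling gave 1 higher and 4 lower against cattle, where 79.9% of all genes were then called (39.4% higher and 40.5% lower). Against yak it gave 1 higher and 6 lower, where 82.4% were called (40.4% higher and 42.0% lower). TEX11 stayed called higher, and HSF2BP and TEX15 called lower, against both parents, in this and in each other alternative tried.

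**Figure D1:**
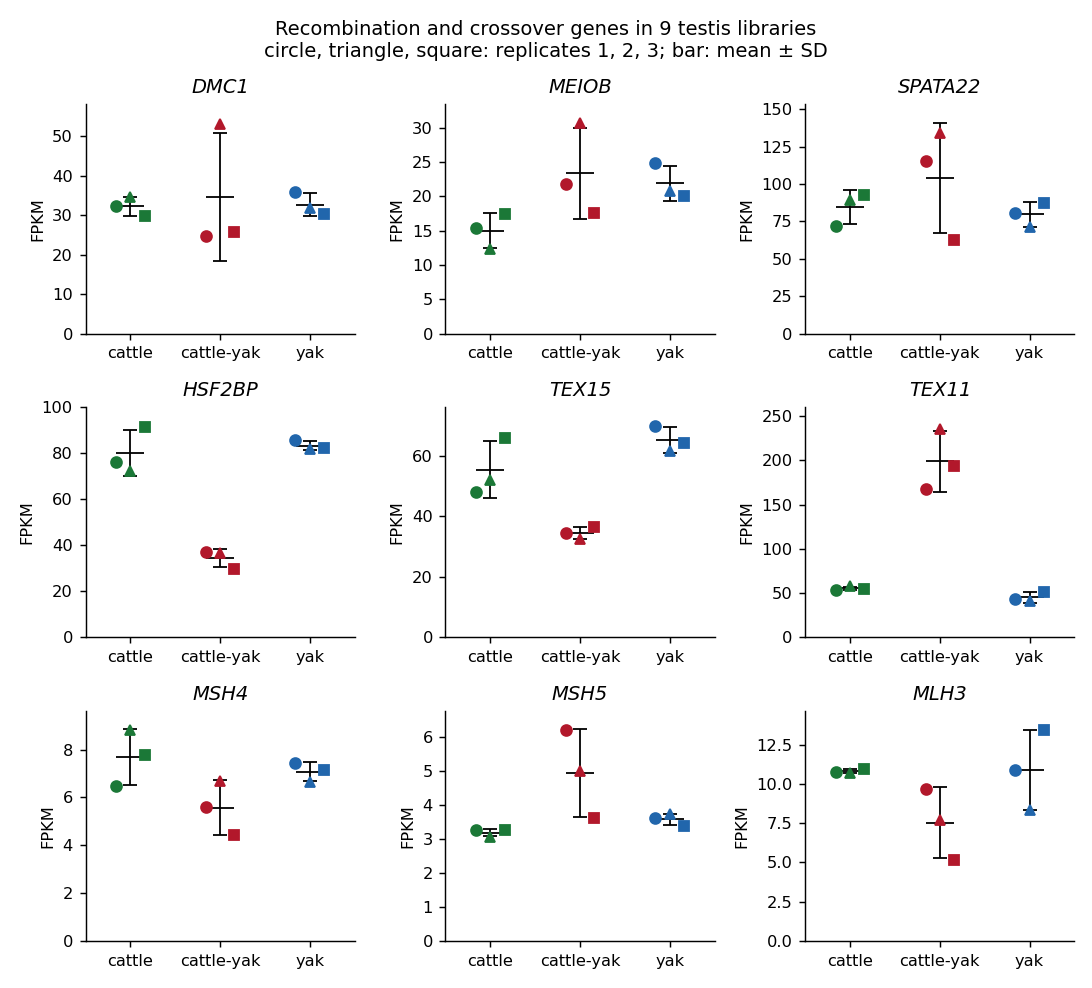
FPKM of 9 recombination and crossover genes (y axes, from 0) in each library of cattle, cattle-yak and yak, with circles, triangles and squares for replicates 1, 2 and 3 and bars for mean ± SD (n = 3). TEX11 lies between 167 and 235 in cattle-yak and at most 57.5 in both parents, HSF2BP and TEX15 lie below both parents in each cattle-yak library, and DMC1 in cattle-yak has 1 library at 53.2 above 2 near 25.

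The plot of FPKM by gene shows each library. Among the strand exchange genes DMC1 comes first, the recombinase that is made only in meiosis and pairs the broken strand with the partner chromosome. DMC1 was at 32.3, 34.6 and 29.9 FPKM in cattle, 24.6, 53.2 and 25.8 in cattle-yak, and 35.9, 31.8 and 30.2 in yak. Replicates 1 and 3 of the cattle-yak were below every parental library and replicate 2 was above every one, so the groups overlapped. The log2 difference from cattle was 0.0068 ± 0.24 (SE), with a 95% interval of -0.53 to 0.54 and adjusted p = 0.980 by limma, and that from yak was -0.0074, from -0.55 to 0.53 (adjusted p = 0.978). Replicate 2 decided this value: without it the difference was -0.34 from cattle (adjusted p = 0.0234 by limma) and -0.36 from yak (adjusted p = 0.0191). With median-ratio scaling DMC1 was called lower than in yak, by a log2 difference of -0.62 (adjusted p = 0.0360 by limma), and not called against cattle (-0.54, adjusted p = 0.0637). The spread of DMC1 within cattle-yak, a coefficient of variation of 46.8%, was the widest of the 9 genes in any group.

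MEIOB and SPATA22 encode the partners of a complex that binds single-stranded DNA and, in mouse, keeps recombinases on the broken ends. MEIOB was at 15.4, 12.3 and 17.4 FPKM in cattle, 21.8, 30.7 and 17.7 in cattle-yak, and 24.9, 20.8 and 20.0 in yak. Each cattle-yak library was above each cattle library, by a narrow margin between 17.66 and 17.40, and the yak libraries lay inside the cattle-yak range. Groups without overlap were common, at 86.2% of all genes tested between cattle-yak and cattle, 88.2% between cattle-yak and yak, and 39.9% between yak and cattle. MEIOB was 1.56-fold higher in cattle-yak than in cattle (log2 difference 0.58 ± 0.19 (SE), adjusted p = 0.0166 by limma), and its difference from yak was 0.061 with a 95% interval of -0.37 to 0.49 (adjusted p = 0.776).

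The call for MEIOB against cattle was lost without cattle replicate 2 (adjusted p = 0.0699 by limma), without cattle-yak replicate 2 (adjusted p = 0.0670), with quantile normalization (adjusted p = 0.0548) and with median-ratio scaling (log2 difference 0.045, adjusted p = 0.844). With that scaling MEIOB was lower in cattle-yak than in yak, by a log2 difference of -0.55 (adjusted p = 0.0288). MEIOB was also the one gene with an unadjusted p under 0.05 between yak and cattle, where it was 1.46-fold higher in yak and the libraries did not overlap (log2 difference 0.52 ± 0.19 (SE), adjusted p = 0.0887 by limma). It was called there without cattle-yak replicate 2 (adjusted p = 0.0475) and when only the yak and cattle libraries entered the fit (adjusted p = 0.0418). MEIOB was the single gene of the 9 with more than 1 transcript in the table, and its second transcript held 10.4 to 13.7% of the gene's FPKM in cattle, 4.24 to 6.91% in cattle-yak and 4.47 to 8.85% in yak.

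SPATA22 was at 71.9, 89.0 and 92.8 FPKM in cattle, 116, 134 and 62.5 in cattle-yak, and 80.4, 71.1 and 87.6 in yak. In cattle-yak, replicates 1 and 2 were above and replicate 3 was below every parental library. Its log2 difference was 0.23 from cattle, with a 95% interval of -0.30 to 0.77 (adjusted p = 0.383 by limma), and 0.31 from yak, from -0.22 to 0.85 (adjusted p = 0.241). When cattle-yak replicate 3 was left out SPATA22 was called higher, by 0.56 against cattle (adjusted p = 0.00410 by limma) and by 0.64 against yak (adjusted p = 0.00172).

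HSF2BP binds BRCA2 and, in mouse, helps bring recombinases such as DMC1 to the broken ends. HSF2BP was at 76.4, 72.5 and 91.4 FPKM in cattle, 36.9, 36.5 and 29.8 in cattle-yak, and 85.8, 81.8 and 82.6 in yak. The cattle-yak libraries were all lower than the 6 parental libraries, with a wide gap. The coefficient of variation was 12.4% in cattle, 11.6% in cattle-yak and 2.53% in yak, beside medians over all genes tested of 11.7, 12.7 and 13.9%. HSF2BP was 2.33-fold lower than in cattle (log2 difference -1.19 ± 0.12 (SE), adjusted p = 6.14e-06 by limma) and 2.42-fold lower than in yak (log2 difference -1.26 ± 0.12 (SE), adjusted p = 3.50e-06). Between yak and cattle its log2 difference was 0.064, with a 95% interval of -0.20 to 0.33 (adjusted p = 0.747 by limma).

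TEX15 is needed in mouse spermatocytes for recombinases such as DMC1 to load on broken ends. TEX15 was at 48.2, 52.2 and 66.0 FPKM in cattle, 34.5, 32.5 and 36.4 in cattle-yak, and 69.9, 61.8 and 64.2 in yak. Every cattle-yak library was below every parental library, and the cattle-yak animals were close to each other, with a coefficient of variation of 5.63%. TEX15 was 1.61-fold lower than in cattle (log2 difference -0.66 ± 0.12 (SE), adjusted p = 0.000511 by limma) and 1.89-fold lower than in yak (log2 difference -0.90 ± 0.12 (SE), adjusted p = 4.96e-05). Its log2 difference between yak and cattle was 0.24 (adjusted p = 0.202 by limma) and was called without cattle replicate 3, where it was 0.37 (adjusted p = 0.0494).

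TEX11, encoded on the X chromosome, belongs to the group of proteins that stabilise crossover intermediates, and its loss leads to meiotic arrest in male mice. TEX11 was at 53.5, 57.5 and 54.5 FPKM in cattle, 167, 235 and 194 in cattle-yak, and 42.9, 40.6 and 51.6 in yak. The cattle-yak libraries were far above all 6 parental libraries. TEX11 was 3.60-fold higher than in cattle (log2 difference 1.82 ± 0.14 (SE), adjusted p = 1.06e-06 by limma) and 4.42-fold higher than in yak (log2 difference 2.11 ± 0.14 (SE), adjusted p = 3.39e-07). After median-ratio scaling the log2 differences were 1.26 and 1.48, both called. In cattle-yak it was the most abundant of the 9 genes per length and exceeded 98.0% of all genes tested, against 87.3% in cattle and 83.4% in yak. The yak libraries were all below the cattle libraries, with a log2 difference of -0.29 and a 95% interval of -0.60 to 0.011 (adjusted p = 0.163 by limma).

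MSH4 and MSH5 form the clamp that slides on joined DNA and holds it for crossing over. MSH4 was at 6.47, 8.81 and 7.77 FPKM in cattle, 5.62, 6.69 and 4.42 in cattle-yak, and 7.44, 6.65 and 7.16 in yak. Replicate 2 of the cattle-yak reached into the range of both parents. MSH4 was 1.38-fold lower than in cattle (log2 difference -0.41 ± 0.16 (SE), adjusted p = 0.0317 by limma), and its difference from yak was -0.31 with a 95% interval of -0.66 to 0.037 (adjusted p = 0.0843).

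The call for MSH4 against cattle was lost without cattle replicate 2 (adjusted p = 0.123 by limma), cattle replicate 3 (0.0727), cattle-yak replicate 1 (0.0574) or cattle-yak replicate 3 (0.129), when libraries were scaled to the same summed FPKM (0.0834) and when only these groups entered the fit (0.0506). Against yak it was called lower without cattle-yak replicate 2 (adjusted p = 0.0321 by limma) and with median-ratio scaling (log2 difference -0.85, adjusted p = 0.000428) or quantile normalization (-0.65, adjusted p = 0.00225).

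MSH5 was at 3.26, 3.06 and 3.26 FPKM in cattle, 6.20, 5.01 and 3.61 in cattle-yak, and 3.63, 3.73 and 3.40 in yak. Replicates 1 and 2 of the cattle-yak were above both parents, while replicate 3 was above cattle and inside the yak range. MSH5 was 1.55-fold higher than in cattle (log2 difference 0.48 ± 0.16 (SE), adjusted p = 0.0161 by limma), and its difference from yak was 0.35 with a 95% interval of -0.0030 to 0.70 (adjusted p = 0.0595). The call against cattle was lost without cattle-yak replicate 1 (adjusted p = 0.0660 by limma), with quantile normalization (adjusted p = 0.155) and with median-ratio scaling (log2 difference 0.029, adjusted p = 0.872). MSH5 was called higher than in yak without cattle-yak replicate 3 (adjusted p = 0.00643 by limma), with libraries scaled to the same summed FPKM (0.0292) and with a pseudocount of 5 (0.0493), and with median-ratio scaling its difference from yak was -0.16 (adjusted p = 0.376). In the RefSeq annotation of ARS-UCD2.0 MSH5 overlaps CLIC1. The libraries are described as directional, but no source used here says whether reads were assigned by strand. The low FPKM of MSH5 is thus uncertain. In the same annotation DMC1 overlaps a long non-coding RNA gene and TEX11 overlaps snoRNA and tRNA genes, while the others overlap none. The effect of these overlaps on FPKM was not tested.

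MLH3 is a subunit of the endonuclease that cuts joined molecules into crossovers. MLH3 was at 10.8, 10.7 and 10.9 FPKM in cattle, 9.69, 7.69 and 5.18 in cattle-yak, and 10.9, 8.36 and 13.4 in yak. Each cattle-yak library was below each cattle library, and the cattle-yak and yak ranges overlapped. MLH3 was 1.44-fold lower than in cattle (log2 difference -0.51 ± 0.21 (SE), adjusted p = 0.0415 by limma) and 1.45-fold lower than in yak (log2 difference -0.49 ± 0.21 (SE), adjusted p = 0.0445).

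These were the least stable calls of the 9 genes. Against cattle MLH3 was no longer called without any 1 of cattle replicates 1, 2 and 3 (adjusted p = 0.0817, 0.0800 and 0.0875 by limma), cattle-yak replicate 2 (0.0657) or 3 (0.163), or yak replicate 1 (0.0514). Against yak the call ended without any 1 of the cattle replicates, cattle-yak replicate 2 (adjusted p = 0.0690 by limma) or 3 (0.175), or yak replicate 1 (0.0878) or 3 (0.166). Both calls also ended with no filter on low values (adjusted p = 0.0600 and 0.0635 by limma) and with libraries scaled to the same summed FPKM (0.104 and 0.135), and that against yak with only these groups in the fit (0.0821). With median-ratio scaling MLH3 was lower in both, with log2 differences of -1.0 (adjusted p = 0.00132) and -1.05 (adjusted p = 0.000857 by limma).

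**Figure D2:**
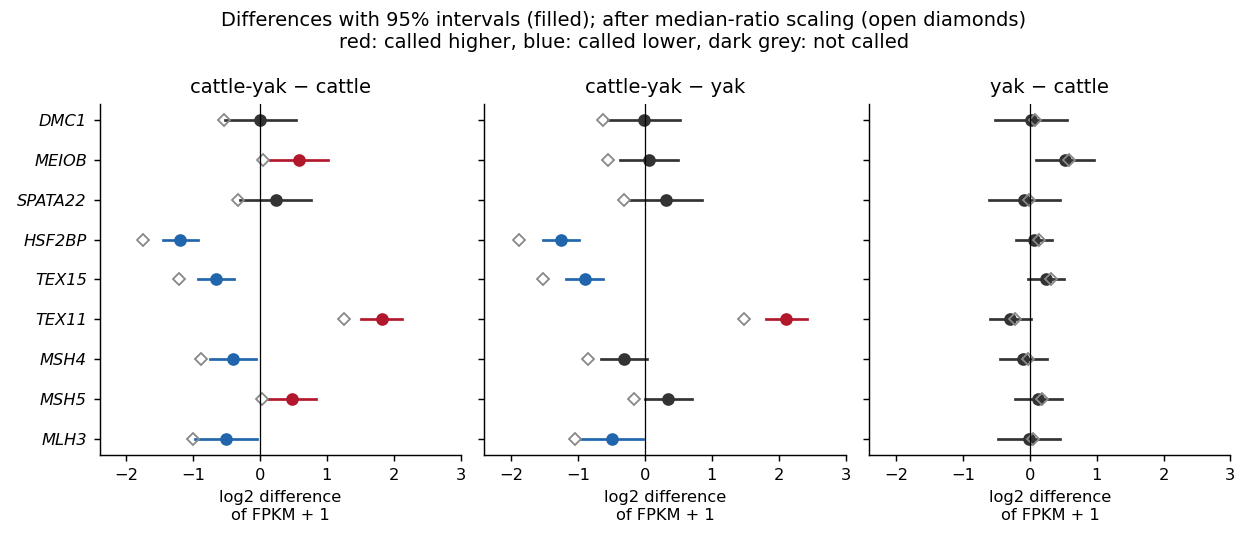
Log2 differences of FPKM + 1 (x axis) between cattle-yak and cattle, cattle-yak and yak, and yak and cattle for 9 genes, with 95% intervals from limma (n = 3 per group); red is called higher, blue called lower, dark grey not called, and open diamonds are the same differences after median-ratio scaling. Against both parents TEX11 lies to the right of 0 and HSF2BP and TEX15 to the left with both scalings, whereas the diamonds of MEIOB and MSH5 lie near or below 0.

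The plot of differences places the genes side by side. In order of mean FPKM the cattle values ran from SPATA22 (84.6 ± 11.1 (SD, n = 3)) and HSF2BP (80.1 ± 9.95) through TEX15, TEX11, DMC1, MEIOB, MLH3 and MSH4 to MSH5 (3.20 ± 0.12). The yak order was headed by HSF2BP (83.4 ± 2.11) and SPATA22 (79.7 ± 8.27). In cattle each of these means lay within the SD of the other, and in yak the HSF2BP mean lay within the SD of SPATA22 but not the reverse. In cattle-yak the order was headed by TEX11 (198.9 ± 34.3) and SPATA22 (104 ± 37.0). DMC1 (34.5 ± 16.2), TEX15 (34.5 ± 1.94) and HSF2BP (34.4 ± 4.0) then lay at nearly one level, and MSH4 (5.58 ± 1.14) and MSH5 (4.94 ± 1.3) within each other's spread.

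The coefficient of variation was highest in cattle-yak for 7 of the 9 genes, all but HSF2BP and TEX15, which is a description without a test. The median coefficient of variation of the 9 genes was 26.3% in cattle-yak, 12.4% in cattle and 9.0% in yak, while over all genes tested the medians were 12.7, 11.7 and 13.9%. Replicate 3 was the lowest cattle-yak library in 6 of the 9 genes and replicate 2 the highest in 5 of the 9. Over all genes tested replicate 3 was lowest in 34.8% and replicate 2 highest in 30.6%. In the axis and synaptonemal complex list replicate 3 was lowest in 10 of 14 genes and replicate 2 highest in 12 of 14. In the spermatid list these were 11 of 12 and 8 of 12, and in the further crossover genes described below 14 of 24 and 15 of 24. In the late spermatocyte list they were 6 of 8 and 1 of 8. In the further strand exchange genes replicate 1 was most often lowest (16 of 32), with replicate 2 highest in 19 of 32. In the Sertoli cell list replicate 3 was highest in 7 of 9. Whether the spread of the 9 genes comes with any of these lists was not tested.

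**Figure D3:**
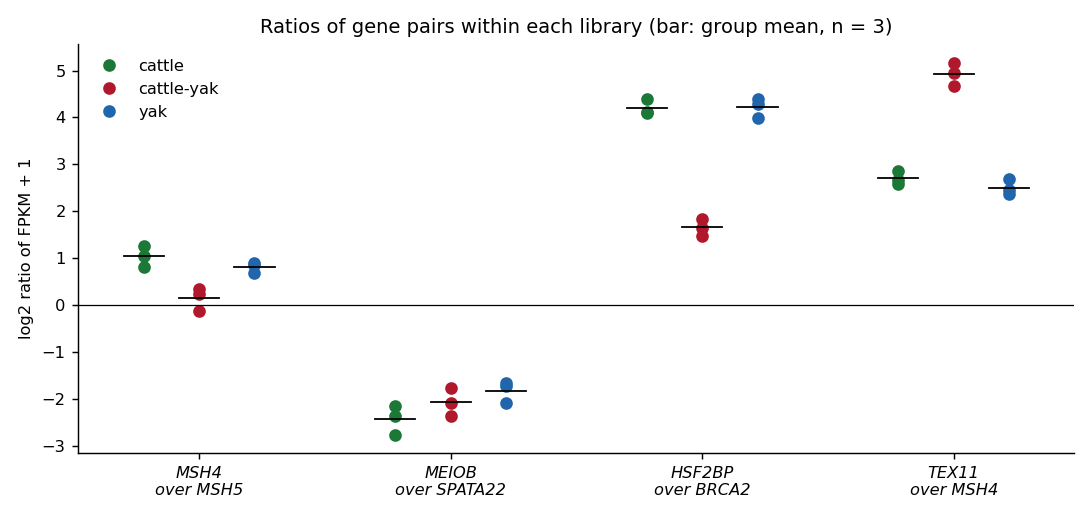
Log2 ratio of FPKM + 1 of paired genes within each library (y axis) for 4 pairs, with 1 point per library of cattle, cattle-yak and yak and a bar at the group mean (n = 3). For HSF2BP over BRCA2 and MSH4 over MSH5 the cattle-yak libraries lie below all parental libraries, and for TEX11 over MSH4 they lie above.

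A ratio of the FPKM of 2 genes inside a library does not depend on how libraries are scaled. The plot of ratios shows 4 pairs that act together on the log2(FPKM + 1) scale, where the added 1 leaves some dependence on scaling for low genes such as MSH5, BRCA2 and MSH4. With 3 against 3 libraries the exact two-sided permutation test cannot go below p = 0.1, and the smallest p of the 12 comparisons given here, adjusted over all 18 that were run, was 0.225, so none passed. The FPKM ratio of MSH4 to MSH5 was 1.98, 2.88 and 2.38 in cattle, 0.906, 1.34 and 1.22 in cattle-yak, and 2.05, 1.78 and 2.11 in yak. All cattle-yak ratios were below all parental ratios, so the clamp partners were nearly level per length in cattle-yak and not in the parents. On the log2(FPKM + 1) scale the ratio was 0.89 lower than in cattle and 0.66 lower than in yak (exact permutation p = 0.1 for both, n = 3 per group). The overlap of the MSH5 and CLIC1 annotations applies to this ratio too. How often ratios of gene pairs outside the chosen ones lie apart between the groups was not computed. Of single genes tested, 86.2% lay apart between cattle-yak and cattle and 88.2% between cattle-yak and yak.

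For HSF2BP and its partner BRCA2, which loads recombinases on broken DNA, the FPKM ratio was 22.1, 21.8 and 27.2 in cattle, 3.87, 3.34 and 2.95 in cattle-yak, and 24.9, 19.5 and 27.9 in yak. The cattle-yak ratios were all below the parental ratios, by 2.55 and 2.57 on the log2(FPKM + 1) scale (exact permutation p = 0.1 for both, n = 3 per group). BRCA2 itself was 3.02-fold higher in cattle-yak than in cattle (log2 difference 1.35 ± 0.13 (SE), adjusted p = 4.87e-06 by limma) and 2.89-fold higher than in yak.

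The ratio of TEX11 to MSH4, both of the crossover group, was 8.27, 6.53 and 7.02 in cattle, 29.8, 35.2 and 43.9 in cattle-yak, and 5.77, 6.11 and 7.2 in yak, without overlap between cattle-yak and either parent. The ratio of MEIOB to SPATA22 was 0.138 to 0.214 in cattle, 0.188 to 0.282 in cattle-yak and 0.228 to 0.310 in yak.

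Other genes of the same steps were taken from 2 lists. Of 32 further strand exchange genes, 17 were called higher and 7 lower in cattle-yak than in cattle, with a median log2 difference of 0.43, and 19 higher and 6 lower than in yak, with a median of 0.47. Against cattle this is 53.1% higher and 21.9% lower, beside 54.4% and 30.0% of all genes tested, and against yak 59.4% and 18.8%, beside 55.3% and 30.7%. After median-ratio scaling the counts were 11 and 11 against cattle and 11 and 12 against yak, which are 34.4% and 34.4% beside 39.4% and 40.5% of all genes, and 34.4% and 37.5% beside 40.4% and 42.0%. Between yak and cattle 3 were called higher and 5 lower, or 9.38% and 15.6%, beside 8.36% and 10.7% of all genes.

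Against cattle the largest differences in this list were on the lower side. ZSWIM7, which stabilises recombinase filaments together with SWSAP1, was at 114, 132 and 156 FPKM in cattle, 33.6, 31.2 and 16.2 in cattle-yak, and 113, 78.0 and 91.2 in yak. The groups were apart, with log2 differences of -2.32 ± 0.25 (SE) from cattle and -1.81 ± 0.25 (SE) from yak (adjusted p = 1.03e-05 and 5.26e-05 by limma). PSMC3IP and MND1, which form a complex that stimulates DMC1, were both lower as well. PSMC3IP was 3.16-fold lower than in cattle and 1.76-fold lower than in yak, and MND1, chosen after its values were seen, was 1.75-fold and 2.99-fold lower (largest adjusted p = 0.00102 by limma). SWI5, a further helper of strand exchange, was 3.02-fold lower than in cattle (adjusted p = 0.00201 by limma) but overlapped yak (log2 difference -0.53, adjusted p = 0.187), where replicate 1 was at 53.1 FPKM and replicates 2 and 3 at 17.1 and 17.1. With median-ratio scaling SWI5 was called lower than in yak (log2 difference -1.13, adjusted p = 0.0187 by limma).

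RAD51C, which acts with other recombinase relatives in strand exchange, had the largest difference from cattle on the higher side, at 8.50 ± 1.39 FPKM (SD, n = 3) in cattle, 25.0 ± 4.15 in cattle-yak and 8.48 ± 2.73 in yak. Its log2 difference was 1.45 from cattle and 1.49 from yak (adjusted p = 0.000105 and 8.00e-05 by limma). RPA1 and RPA2, subunits of the general single-strand binding protein and chosen after their values were seen, were 2.43-fold and 1.86-fold higher than in cattle (adjusted p = 2.50e-06 and 0.00106 by limma). RPA2 lost that call with median-ratio scaling (log2 difference 0.31, adjusted p = 0.107). RAD51B and TOPBP1 differed least from cattle, with log2 differences of -0.013 and 0.049 (adjusted p = 0.935 and 0.696 by limma). With median-ratio scaling both were called lower than in cattle, by -0.45 (adjusted p = 0.0107) and -0.51 (adjusted p = 0.00153).

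**Figure D4:**
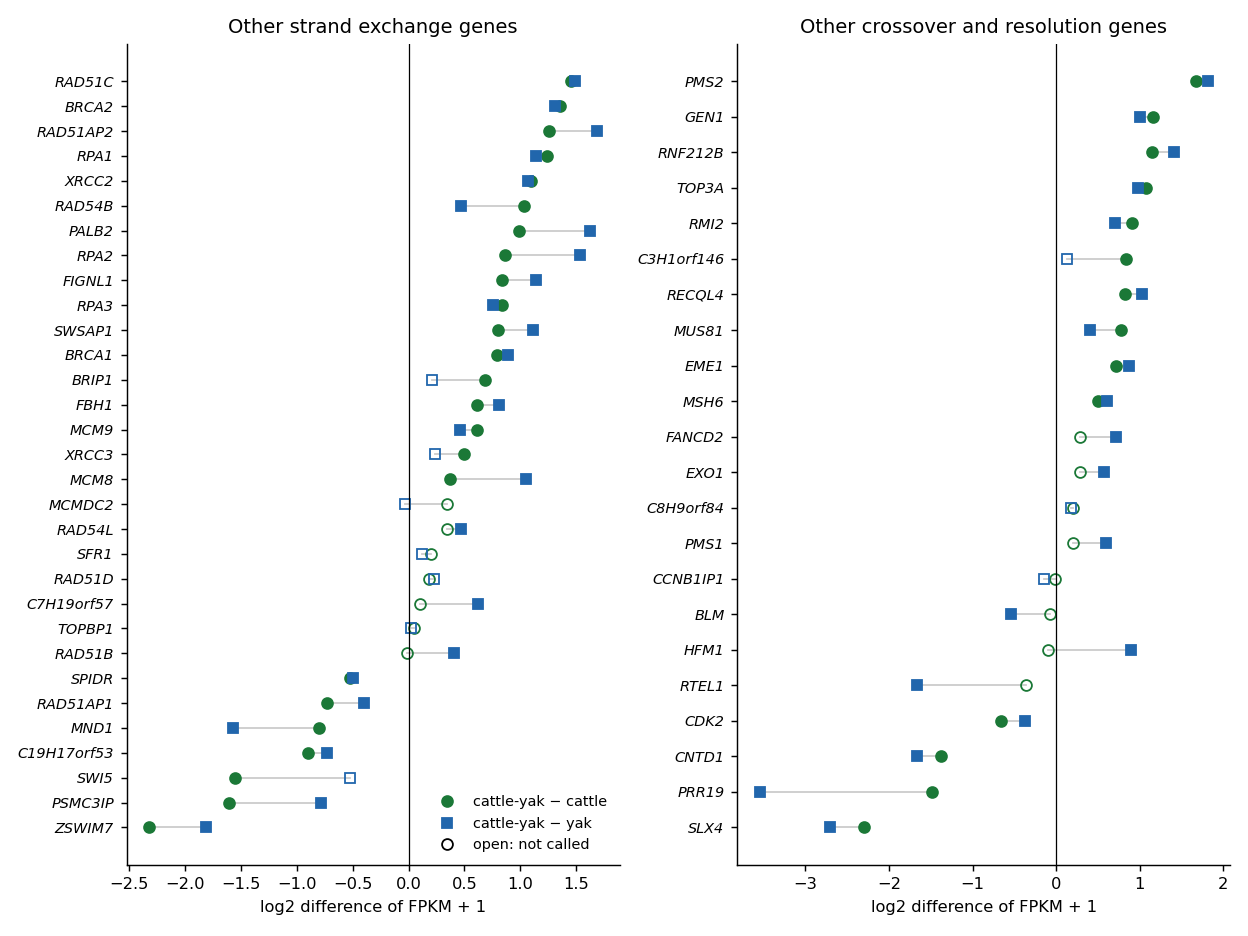
Log2 differences of FPKM + 1 (x axis) for 31 strand exchange genes (left) and 22 crossover and resolution genes (right), as cattle-yak minus cattle (green circles) and cattle-yak minus yak (blue squares), filled where called by limma and open where not, with symbols as in the table. ZSWIM7, PSMC3IP, SLX4, PRR19 and CNTD1 lie far to the left against cattle, and RAD51C, BRCA2, RPA1 and PMS2 to the right.

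The plot of both lists shows the tested genes that are reported one by one, 31 and 22 of them. Of 26 further crossover and resolution genes 24 were tested, and 11 were called higher and 5 lower in cattle-yak than in cattle, with a median log2 difference of 0.28. These are 45.8% and 20.8%, beside 54.4% and 30.0% of all genes tested. Against yak 14 were higher and 7 lower, with a median of 0.58, which are 58.3% and 29.2%, beside 55.3% and 30.7%. After median-ratio scaling the counts were 6 and 10 against cattle and 7 and 9 against yak, which are 25.0% and 41.7% beside 39.4% and 40.5%, and 29.2% and 37.5% beside 40.4% and 42.0%. Between yak and cattle 3 were higher and 3 lower, or 12.5% each, beside 8.36% and 10.7% of all genes.

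SLX4, the scaffold of DNA-cutting enzymes at joined molecules, was at 42.3, 46.8 and 53.6 FPKM in cattle, 11.7, 10.4 and 5.57 in cattle-yak, and 63.0, 64.8 and 61.2 in yak. It was 5.16-fold lower than in cattle and 6.83-fold lower than in yak (adjusted p = 3.75e-06 and 1.10e-06 by limma), with no overlap. CNTD1 and PRR19 act together in mouse to mature crossover sites, and both were lower than in either parent. CNTD1 was 2.58-fold lower than in cattle and 3.14-fold lower than in yak (adjusted p = 0.000271 and 6.45e-05 by limma). PRR19 was at 15.1, 12.3 and 13.7 FPKM in cattle, 5.12, 5.79 and 2.39 in cattle-yak, and 66.2, 63.9 and 50.7 in yak. The parents themselves were far apart, with PRR19 4.41-fold higher in yak than in cattle (log2 difference 2.06 ± 0.23 (SE), adjusted p = 0.000267 by limma), and cattle-yak was below both.

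PMS2, a subunit of a mismatch repair enzyme, was 3.77-fold higher than in cattle and 4.26-fold higher than in yak (adjusted p = 1.18e-06 and 6.00e-07 by limma). RNF212B, named after a resemblance to RNF212 and chosen after its values were seen, was 2.99-fold higher than in cattle (adjusted p = 1.74e-05 by limma). RNF212B was low per length in each group, at 1.57 ± 0.19 FPKM (SD, n = 3) in cattle, 4.70 ± 0.58 in cattle-yak and 1.15 ± 0.21 in yak. CCNB1IP1, a RING protein of crossover control in mouse, was at 24.2 ± 1.77 FPKM in cattle, 24.2 ± 4.84 in cattle-yak and 26.5 ± 1.98 in yak, and was not called (log2 difference from cattle -0.016, 95% interval -0.34 to 0.31, adjusted p = 0.922 by limma). With median-ratio scaling CCNB1IP1 was lower, by -0.56 against cattle (adjusted p = 0.00616) and by -0.75 against yak (adjusted p = 0.000917).

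BLM, a helicase that takes joined molecules apart, was at 12.9 ± 0.97 FPKM (SD, n = 3) in cattle, 12.2 ± 2.18 in cattle-yak and 18.3 ± 3.03 in yak. It was not called against cattle (log2 difference -0.079, 95% interval -0.43 to 0.27, adjusted p = 0.653 by limma) and was 1.5-fold lower than in yak without overlap (log2 difference -0.55 ± 0.16 (SE), adjusted p = 0.00785). With median-ratio scaling BLM was called lower than in both, by -0.60 (adjusted p = 0.00387) and -1.13 (adjusted p = 4.95e-05).

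C3H1orf146, annotated as SPO16 in the RefSeq table and known in mouse as a crossover factor, had another pattern and was chosen after its values were seen. It was at 9.80, 11.5 and 9.07 FPKM in cattle, 16.8, 21.9 and 18.0 in cattle-yak, and 13.9, 16.9 and 21.4 in yak. Both cattle-yak and yak were above cattle without overlap, by 0.84 ± 0.17 (SE) and 0.71 ± 0.17 (SE) on the log2 scale (adjusted p = 0.000723 and 0.0143 by limma), and they overlapped each other. The call against cattle was lost with median-ratio scaling (log2 difference 0.31, adjusted p = 0.0759 by limma). MEIOB had a like order of group means, with cattle lowest.

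For each of the 9 genes, the genes with the most similar levels over the 9 libraries were found by the Euclidean distance of log2(FPKM + 1) centred on the mean of each gene. The closest to TEX11 was TKTL1, at a distance of 0.29, which was at 36.2 ± 1.53 FPKM (SD, n = 3) in cattle, 128 ± 25.0 in cattle-yak and 30.8 ± 5.37 in yak, followed by ZCWPW1 and ZNF711. Among the closest to HSF2BP were CUL3 and ZER1, both at a distance of 0.19, and those to TEX15 were PIGC, ARIH1 and MCTP2, at 0.19 to 0.24. MEIOB was closest to HUS1 (0.34), RAD52 (0.39) and OTUD1, and MSH5 to ZNF605 (0.26). DMC1 and MLH3 had no gene closer than 0.46 and 0.44. The distance describes levels only.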

How the data were processed

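RNA of 9 testes was depleted of ribosomal RNA and made into directional libraries and read from both ends at 125 nt, per the labels' protocols. The submitters' processing notes name HISAT2 (2.0.5) and StringTie (1.3.4), further Bowtie, Cufflinks and Trimmomatic, and the cattle build UMD3.1, with no role given. FPKM values were computed by the authors for 22118 transcripts and deposited for all libraries, and reads of yak and hybrid were thus set against a cattle build. They were summed per gene. Low values did not step in whole reads (2.59 to 6.51% at the commonest ratio), so depth is unknown. Summed FPKM per library was 408528 to 481551.

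Limma 3.58.1 in R 4.3.3 was fitted to log2(FPKM + 1), a scale that understates the change of low genes, with group means over all 9 libraries and a trend in the empirical Bayes step. P-values are two-sided, with Benjamini-Hochberg adjustment over 14091 genes. The steps were tested on simulated data. Intervals are at 95%. Gene pair ratios used exact permutation tests in SciPy 1.17.1. The members and lists were chosen with earlier results of these data known. Besides the members, the text names genes of the 2 lists by their absolute difference from cattle. These are the 4 with the largest and the 2 with the smallest in each list. It also names the pair partners, up to 3 nearest genes by level of each member, and a few further genes of the 2 lists. Those further genes are each marked in the text as picked with their values in view. Single genes named from the marker lists were picked with their values in view too. In the 2 lists 4 genes were found under chromosome-based symbols. Alternatives were other pseudocounts, filters, scalings, transcript choice, no trend, only the groups compared, a replicate term and leaving out each library. Some listed genes, pairs and similar genes are not reported here one by one, but remain in the counts and adjustments. The circRNA table was not used, since its rows could not be tied to these genes. Sequences and coordinates are not given, as the RefSeq table at hand is of another build.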

Additional observations from a re-analysis of the deposited data

How the results depend on the processing

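TEX11, HSF2BP and TEX15 were called in the same direction against both parents under all 19 alternatives, with log2 differences of 1.26 to 2.33, -1.88 to -1.09 and -1.52 to -0.53. The depth behind the FPKM is unknown, so no counting limit can be given for MSH5, MSH4 or other low genes, and the cause of each dependence below was not tested. With median-ratio scaling the calls among the 9 genes were 1 higher against cattle and 6 lower against yak, and with quantile normalization 1 higher against cattle. Scaling to the same summed FPKM gave 2 lower against cattle and 2 higher against yak, and a pseudocount of 5 gave 2 higher against yak. For cattle-yak beside either parent, the share of all genes called is given above for median-ratio scaling but not for these other settings. It is also not given for fits with a library left out. The counts of the 9 genes in those fits thus stand without that share and are not read as a result about these genes. Leaving out 1 library at a time gave 2 to 4 higher and 2 to 4 lower against cattle, 1 to 3 higher and 2 to 4 lower against yak, and 0 to 1 higher between yak and cattle, where the fit to those groups alone gave 1. In the strand exchange list median-ratio scaling gave 11 calls in each direction against cattle, and against yak 11 higher and 12 lower. In the crossover list it gave 6 higher and 10 lower against cattle, and 7 higher against yak. Between yak and cattle median-ratio scaling and quantile normalization each gave 5 crossover genes higher. Leaving out 1 library there gave 3 to 6 strand exchange genes lower, 2 to 5 crossover genes higher and 0 to 3 lower, and 962 to 1574 of all genes lower, with 962 without cattle replicate 2. Among values called as reported or with median-ratio scaling, those whose direction turned with it were TOPBP1 (-0.51 and -0.60 against cattle and yak), MEIOB (-0.55), RAD51B (-0.071) and C3H1orf146 (-0.47), the last 3 against yak. SPATA22 (-0.33 and -0.31 against cattle and yak), MSH5 against yak (-0.16) and DMC1 against cattle (-0.54) also turned, without a call in either, as did MLH3 between yak and cattle (0.053). DMC1 against cattle went from -0.34 to 0.20 over the left-out libraries, with -0.34 without cattle-yak replicate 2. Leave-one-out values of the pair ratios, chosen after seeing the data, crossed 0 between yak and cattle for HSF2BP over BRCA2 (-0.062 to 0.14). Alternatives for circRNAs were not run.

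No sign was seen that the replicate numbers of the titles pair the animals. Same-numbered libraries had correlations of deviations from -0.17 to 0.23, and differently numbered ones from -0.35 to 0.23. With 3 libraries per group such correlations cannot settle whether animals were paired. A replicate block called 7616 genes higher and 4189 lower against cattle, 7764 and 4290 against yak, and 1061 and 1371 between yak and cattle. Among the 9 genes the block called 3 in each direction against cattle, and against yak 1 higher and 2 lower, with MLH3 no longer called (adjusted p = 0.0564 and 0.0597 by limma), and 1 crossover gene lower between yak and cattle.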
